A study of Paxillus involutus with 25 samples.

Results

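In the ectomycorrhizal fungus Paxillus involutus, 80 of 18032 listed genes were raised when KH2PO4 was left out of the medium and stood near their complete-medium level when K-vermiculite lay on that same depleted medium. Members were chosen on CPM, the count of a gene divided by the total of its library and multiplied by 1000000. A gene was depletion-induced when its mean on K-depleted medium was at least 10 CPM and at least 2 times its mean on complete medium, with 0.5 added to both means. That gave 391 genes. For each, a position f was computed on the log2(mean + 0.5) scale, where 0 is the K-depleted level and 1 the complete-medium level. The 80 members are the genes that K-vermiculite placed within 0.25 of 1 on this scale. Complete, K-depleted and K-vermiculite values therefore chose the members and are given as a description. Where an edgeR call among these 3 groups is printed, nothing is read from it.

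All cultures were of strain ATCC 200175, and RNA was taken from mycelium after 21 days at 25 °C in the dark. The 25 libraries fell into 5 growth conditions of 5 biological replicates each. Complete MMN agar served as the control with nutrient supply, and MMN agar lacking KH2PO4 (here K-depleted medium) as the control without it. The other 3 conditions put flakes of muscovite, phlogopite or K-vermiculite on K-depleted medium, so every mineral culture lacked KH2PO4 in the agar. Both potassium and phosphate come from that salt, no substitute for it is named, and the effects of the 2 nutrients on the members cannot be told apart. In bulk mycelium, fewer cells of a kind and less RNA per cell cannot be told apart either. Library totals ran from 21035680 to 41217502 counts.

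Potassium is the main cation of the fungal cytoplasm, where it balances charge, sets turgor and supports the membrane potential that drives nutrient uptake. Fungi take it up through plasma membrane transporters, and ectomycorrhizal fungi pass part of what they collect to the tree. In muscovite, phlogopite and K-vermiculite, potassium sits between the sheets of the silicate. In the yeast Saccharomyces cerevisiae, lack of phosphate turns on genes for phosphate uptake and secreted phosphatases. The count table and the gene list of the reference give no product names, so the members are known only by their IDs, and no function is assigned to any of them. All 80 are listed as protein-coding in the reference annotation of the same strain. Reads shared with near-identical genes may affect single members, since how they were counted is not stated in the sources used.

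The members ranged widely in strength of induction. The ratio of K-depleted to complete mean CPM ran from 2.02 to 13.0 with a median of 2.59. It was at least 8 in 5 members, between 4 and 8 in 11, and below 4 in 64. Summed, the members took 1.38% ± 0.204 (SD, n = 5) of the counts on K-depleted medium, 0.415% ± 0.0150 on complete medium and 0.468% ± 0.0327 with K-vermiculite. Their share was 1.29% ± 0.0736 with phlogopite and ran from 0.835% to 1.24% in the muscovite cultures.

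**Figure D1:**
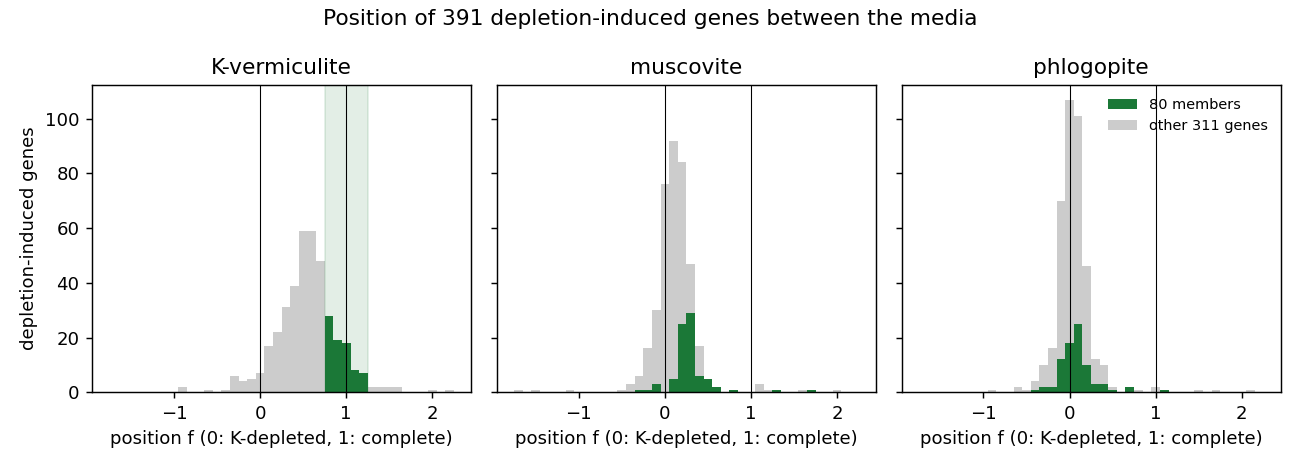
Position f of the 391 depletion-induced genes between K-depleted (0) and complete medium (1), with K-vermiculite, muscovite and phlogopite; bars count genes, green bars are the 80 members, grey bars the other 311 genes, and the shaded band is the window that chose the members. With muscovite most members sit a little above 0, at a median of 0.270, and with phlogopite closer to 0, at a median of 0.0618.

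Among the depletion-induced genes the members form the upper end of a continuous range. K-vermiculite left 65 genes below 0.25, placed 236 from 0.25 to below 0.75 and moved 10 past the upper end of the window. The members' positions had a median of 0.891. Of the 80, 41 lay below 0.9, 28 from 0.9 to 1.1 and 11 above 1.1. Just inside the lower end were PAXINDRAFT_81425 at 0.751 and PAXINDRAFT_116460 at 0.756, and just outside it PAXINDRAFT_56670 at 0.748 and PAXINDRAFT_21268 at 0.744. At the upper end, PAXINDRAFT_117497 at 1.22 and PAXINDRAFT_171529 at 1.21 lay inside, and PAXINDRAFT_91567 at 1.26 and PAXINDRAFT_153975 at 1.34 outside. The lower limit thus runs through a dense part of the range, and the upper one through a sparse part.

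The distance left to the complete-medium level differed between members, within the window of the rule. The ratio of K-vermiculite to complete mean CPM had a median of 1.09 and ran from 0.781 to 1.84. Values of the 5 K-vermiculite cultures overlapped those of the 5 complete-medium cultures in 62 members. They lay wholly above them in 17 members, where 14.4% of all tested genes did, and wholly below them in 1, where 26.4% did. In the edgeR fit described below, 33 members were higher with K-vermiculite than on complete medium and 0 lower, against 26.2% and 26.8% of all tested genes. With library totals alone as the scaling, the counts were 24 and 1. The window of f bounded this difference, so these counts describe the chosen genes and are no test of a reset.

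One library stood apart among the cultures that chose the members. In K-depleted replicate 4, the median member stood 0.23 above its K-depleted mean on the log2 scale, against -0.13 to -0.04 in the other 4. It was the highest K-depleted library for 53 of the 80 members, and for 22.8% of the 8845 tested genes averaging 10 CPM or more. For 21 members its value stood apart from the other 4 by Dixon's criterion (0.71 for 5 values), as it did for 3.43% of those 8845 genes. The rule asked for a high K-depleted mean, which favours genes with 1 high K-depleted culture, so these shares are not matched. Chosen again without that library, the rule gave 70 genes, of which 68 were members. Without it the members' share of counts on K-depleted medium was 1.29% ± 0.0336 (SD, n = 4). The main counts and medians against K-depleted medium are therefore given with and without replicate 4.

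**Figure D2:**
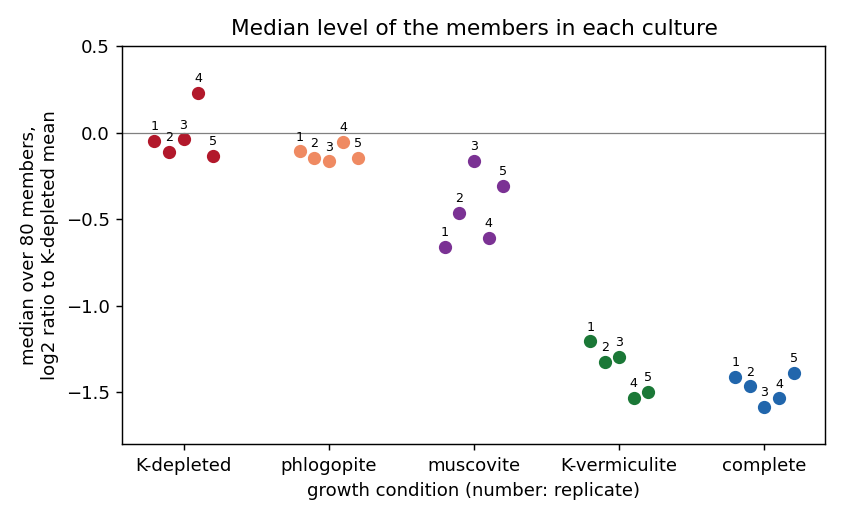
Median over the 80 members of the log2 ratio to the K-depleted mean CPM, 1 point per culture, by growth condition, with replicate numbers. The 5 muscovite cultures lie from -0.66 to -0.16, phlogopite cultures from -0.17 to -0.05, K-vermiculite from -1.53 to -1.21 and complete medium from -1.58 to -1.39.

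A few members owed their place to 1 culture. PAXINDRAFT_80157 read 7.06, 7.56, 7.74, 66.1 and 15.4 CPM in K-depleted replicates 1 to 5, and 5.76 to 18.7 CPM on complete medium. Without replicate 4 its ratio between the media, with 0.5 added, was 0.983, so there was no induction left to reset. PAXINDRAFT_96982 read 9.91, 12.5, 14.1, 65.9 and 14.9 CPM on K-depleted medium, and 5.89 to 9.39 CPM on complete medium. Its ratio without replicate 4 was 1.66. PAXINDRAFT_13938 read 18.9, 20.9, 18.3, 58.4 and 23.3 CPM on K-depleted medium, with a ratio of 1.59 without that library. In each of the 3 genes replicate 4 was far above the other K-depleted cultures. Other named members also left the rule without replicate 4. PAXINDRAFT_171529, PAXINDRAFT_137172, PAXINDRAFT_165785 and PAXINDRAFT_102629 then had ratios of 1.64, 1.80, 1.99 and 1.99, under the limit of 2. PAXINDRAFT_81425 and PAXINDRAFT_116460 then had an f of 0.728 and 0.737, below the window.

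PAXINDRAFT_166955 varied between cultures by more than 10 times. Its K-depleted values were 40.2, 23.8, 121, 39.6 and 701 CPM, those on complete medium 61.9 to 132 CPM, and those with K-vermiculite 69.8 to 203 CPM. Phlogopite cultures ran from 34.3 to 498 CPM and muscovite cultures from 42.7 to 82.0 CPM. Here K-depleted replicate 5 set the mean, and the groups overlapped, so no direction is given for this gene. PAXINDRAFT_166955, PAXINDRAFT_80157 and PAXINDRAFT_13938 were chosen for mention after their values were seen.

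Most members were far steadier. The 6 with the highest ratio between the media include PAXINDRAFT_97712, which read 494, 415, 431, 611 and 409 CPM in K-depleted replicates 1 to 5. On complete medium it read 31.2, 35.4, 39.4, 38.2 and 37.0 CPM, and with K-vermiculite 77.5, 64.5, 66.3, 49.5 and 74.6 CPM. All K-depleted values were several times any value of the other 2 groups, and all K-vermiculite values stayed above all complete-medium values. Its ratio between the media was 13.0 and its position with K-vermiculite 0.765.

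PAXINDRAFT_167028 came closer to the complete-medium level. On K-depleted medium it read 558, 522, 645, 815 and 407 CPM, on complete medium 36.7, 53.5, 42.5, 41.3 and 56.5 CPM, and with K-vermiculite 60.1, 49.0, 60.0, 38.8 and 52.4 CPM. The latter 2 groups overlapped, and f was 0.953. Values of PAXINDRAFT_169338 were 343 to 630 CPM on K-depleted medium, 22.4 to 57.7 CPM on complete medium and 32.7 to 74.4 CPM with K-vermiculite. PAXINDRAFT_21058 read 48.3 to 93.1, 4.51 to 5.94 and 7.69 to 10.7 CPM in the same order, so its K-vermiculite cultures remained above complete medium. PAXINDRAFT_81425, with 429 to 943, 58.9 to 71.2 and 100 to 121 CPM, also stayed above it. For PAXINDRAFT_171199 the ranges were 229 to 411, 33.9 to 40.8 and 44.2 to 59.1 CPM, again without overlap between the last 2.

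Of the 6 members with the highest K-depleted mean CPM, PAXINDRAFT_167028 and PAXINDRAFT_81425 are described above, and the other 4 had lower ratios between the media. CPM depends on transcript length, so this order says nothing of molecules per gene. PAXINDRAFT_167711 read 1903, 1815, 1820, 2789 and 1650 CPM on K-depleted medium, against 430 to 523 CPM on complete medium and 523 to 626 CPM with K-vermiculite. PAXINDRAFT_166798 gave 563 to 854, 169 to 191 and 229 to 253 CPM, and PAXINDRAFT_167893 gave 561 to 665, 242 to 274 and 304 to 327 CPM. In both genes K-vermiculite cultures lay above complete medium without overlap. PAXINDRAFT_165785 went the other way on average, with 432 to 866 CPM on K-depleted medium, 195 to 252 CPM on complete medium and 167 to 249 CPM with K-vermiculite, an f of 1.19.

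**Figure D3:**
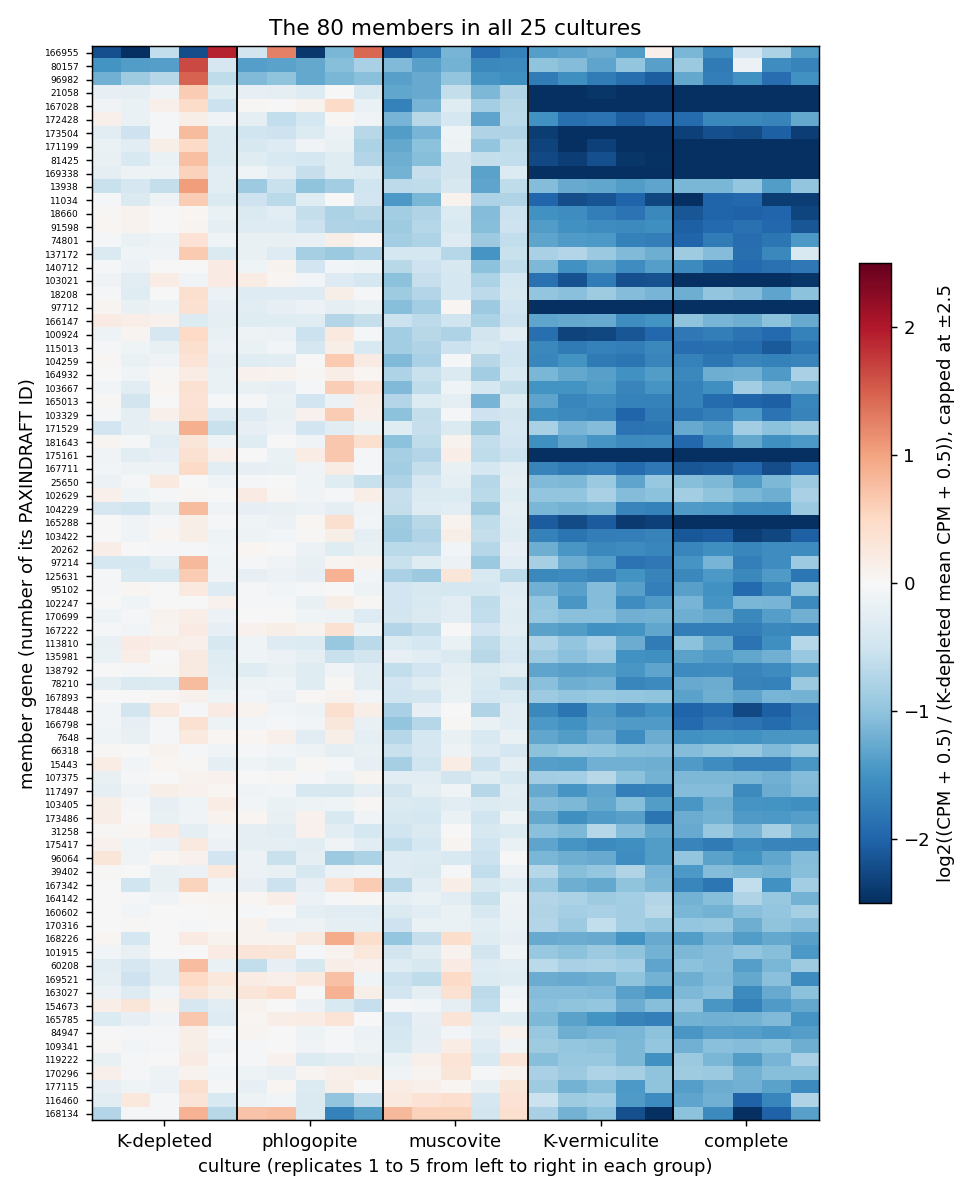
All 80 members (rows, ordered by the muscovite to K-depleted difference) in all 25 cultures (columns, grouped by condition), coloured by the log2 ratio to the K-depleted mean CPM with 0.5 added to both. The K-vermiculite and complete-medium blocks are blue almost throughout, the muscovite block is paler blue in most rows, and K-depleted replicate 4 is the reddest column of its block.

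Muscovite and phlogopite cultures had no part in choosing the members, so the rule used neither side of the comparison between these minerals. The spread behind its p-values does come partly from libraries that the rule used. Counts of all 25 libraries were fitted together with edgeR, with TMM scaling, over 12744 genes that passed a filter on low counts, all 80 members among them. A gene was called when its quasi-likelihood p, adjusted by Benjamini-Hochberg over all tested genes, was below 0.05. Fold changes are on the log2 scale with TMM scaling, whereas CPM values are scaled by library totals.

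With phlogopite, 26 of the 80 members (32.5%) were higher than with muscovite, where 1.94% of all tested genes were. None of the 80 was called lower with edgeR, DESeq2 or limma-voom (background 2.21% with edgeR). At an unadjusted p below 0.05 edgeR gave 46 members, 1 of them lower with phlogopite. The share of all tested genes at that threshold is not given, so this count is a description. The median log2 fold change over the members was 0.34, against 0.00037 over all tested genes. By sign alone, 72 members were higher and 8 lower with phlogopite, where 49.9% of tested genes were lower. Values of the 2 groups did not overlap in 11 members, all higher with phlogopite, where 2.12% of tested genes did that. Differences among the called members ran from 0.23 to 0.98.

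**Figure D4:**
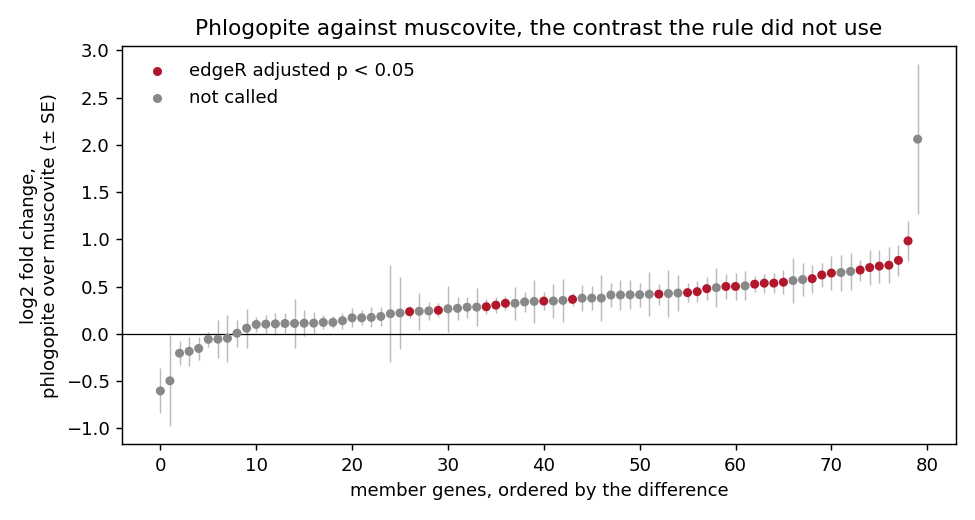
Log2 fold change of phlogopite over muscovite for each of the 80 members (points, ordered by value), with bars of 1 standard error; red points passed an edgeR adjusted p of 0.05. The 26 red points all lie above 0, from 0.23 to 0.98, and 8 grey points lie below 0.

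PAXINDRAFT_167028 showed the widest called difference. It read 183, 264, 475, 328 and 366 CPM in muscovite replicates 1 to 5 and 598, 583, 626, 826 and 527 CPM in phlogopite replicates 1 to 5. Every phlogopite culture lay above every muscovite culture. Phlogopite exceeded muscovite by 0.98 on the log2 scale (SE 0.21, edgeR adjusted p 0.0127). A fit of these 2 groups by themselves ended the call (0.0652).

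For PAXINDRAFT_21058 the muscovite values were 24.2, 24.8, 39.4, 27.5 and 35.7 CPM, and the phlogopite values 51.8, 51.7, 48.0, 60.0 and 45.9 CPM. These groups did not overlap either (0.78 on the log2 scale, SE 0.16, edgeR adjusted p 0.00952). PAXINDRAFT_103667, a member of low counts, read 4.82 to 10.1 CPM with muscovite and 9.31 to 16.9 CPM with phlogopite, which overlap at the edge (0.73, SE 0.19, edgeR adjusted p 0.0297). PAXINDRAFT_104259 read 29.5 to 61.3 and 51.6 to 101 CPM, also with overlap (0.72, SE 0.17, edgeR adjusted p 0.0231). Both calls ended without muscovite replicate 1 or 2 or phlogopite replicate 4 or 5, and in a fit of the 2 groups by themselves; that of PAXINDRAFT_103667 also ended without muscovite replicate 5.

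Tighter replicates gave firmer calls in 2 members chosen for mention after their values were seen. PAXINDRAFT_164932 read 154, 179, 204, 143 and 203 CPM with muscovite and 281, 280, 270, 295 and 273 CPM with phlogopite, without overlap (0.67 on the log2 scale, SE 0.11, edgeR adjusted p 0.00131). PAXINDRAFT_102629 read 12.5, 14.6, 14.7, 11.6 and 15.2 CPM against 21.9, 19.3, 17.6, 18.5 and 21.1 CPM, also without overlap (0.52, SE 0.09, edgeR adjusted p 0.00125). Both kept their call under each alternative fit and with each library left out in turn.

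The number of members called between these minerals depended on single libraries, while the direction of the calls did not. It was 11, 12 and 16 when muscovite replicates 1, 2 and 4 were left out in turn. Of all tested genes, 238, 253 and 499 were then called in either direction. Leaving out phlogopite replicate 4 gave 11 members beside 212 tested genes, and replicate 5 gave 14 beside 245. Leaving out muscovite replicate 3 raised the numbers to 36 members and 761 tested genes. The 2 groups fitted alone gave 11 members and 214 tested genes. The number of members thus moved along with that of all tested genes in most of these settings. Over the 10 left-out libraries the median log2 fold change of the members stayed between 0.29 and 0.42.

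Muscovite was then set against K-depleted medium. These values share the K-depleted libraries with the rule, which asked for a high K-depleted mean, so a tendency to lower values with any other group is built in. With muscovite, 30 members (37.5%) were called lower, where 1.86% of all tested genes were. None was called higher with edgeR, DESeq2 or limma-voom, where edgeR called 1.499% of all tested genes higher and 3.36% in either direction. None was higher at an unadjusted edgeR p below 0.05. The share of all tested genes at that threshold is not given, so this too is a description. Values did not overlap in 27 members, all lower with muscovite, against 2.64% of tested genes. The count was also 27 without K-depleted replicate 4. Leaving out a K-depleted library cannot lower it, so nothing is read from that. The median log2 fold change was -0.41, and -0.33 without K-depleted replicate 4, where 20 members and 292 tested genes were called. Without muscovite replicates 1, 2 and 4 the count of members was 18, 18 and 19, beside 296, 286 and 226 tested genes. It was 18, beside 193 tested genes, when the 2 groups were fitted alone.

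Phlogopite, compared with the same K-depleted libraries, gave 3 members called lower (3.75%), where 2.38% of tested genes were. None was called higher with edgeR, DESeq2 or limma-voom (background 2.77% with edgeR). At an unadjusted p below 0.05 edgeR gave 12 lower and 3 higher, again without the share of all tested genes, so these counts are a description. The median log2 fold change was -0.08. Without K-depleted replicate 4 it was 0.02, with 3 members and 367 tested genes called. Without K-depleted replicate 5, 7 members were called, 6 lower and 1 higher, beside 1378 tested genes. With the 2 groups fitted alone, 0 members and 11 tested genes were called. No result about the members is read from these counts. The 3 members called lower in the fit of all 25 libraries were also among the 30 called lower with muscovite.

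**Figure D5:**
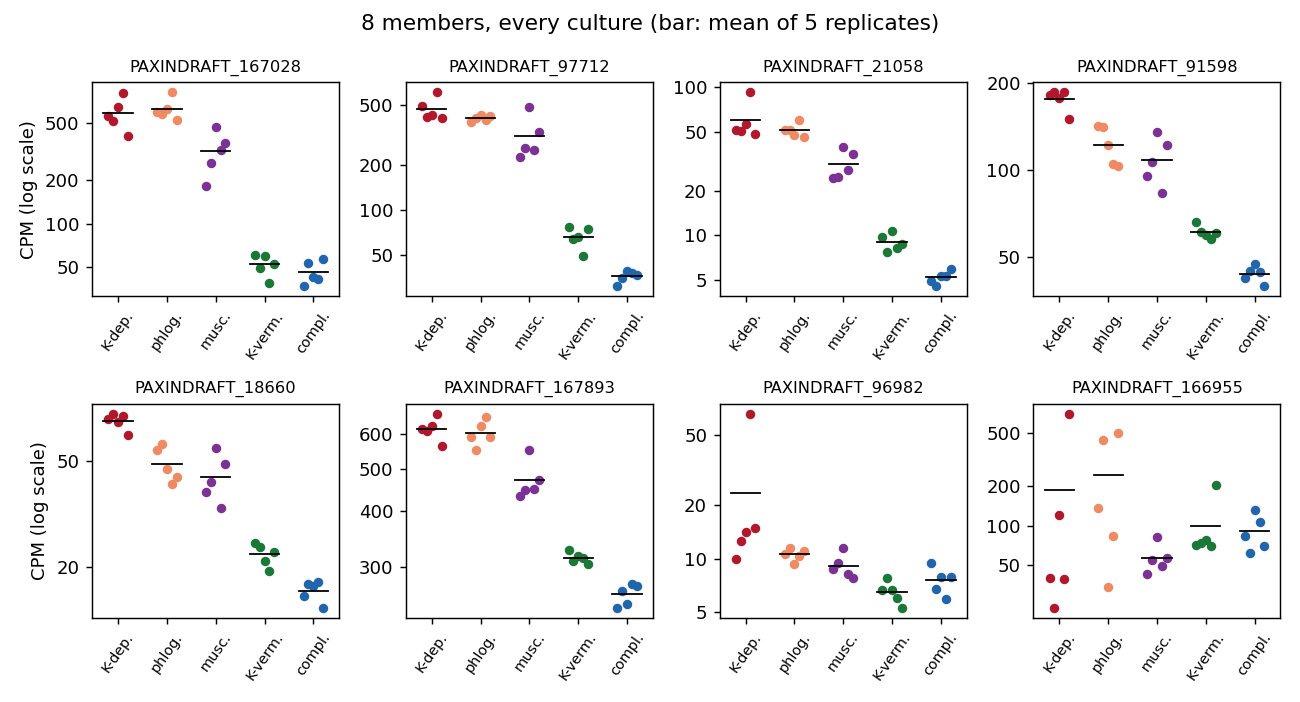
CPM of 8 members in every culture on a log scale, by growth condition (K-depleted, phlogopite, muscovite, K-vermiculite, complete), 1 point per culture, with a bar at the mean of 5 replicates. PAXINDRAFT_167028, PAXINDRAFT_21058 and PAXINDRAFT_167893 sit lower with muscovite than with phlogopite, PAXINDRAFT_91598 and PAXINDRAFT_18660 sit below K-depleted medium with both, and in PAXINDRAFT_96982 and PAXINDRAFT_166955 single cultures set the K-depleted mean.

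PAXINDRAFT_91598 and PAXINDRAFT_18660 were lower with both of these minerals. PAXINDRAFT_91598 read 181, 185, 176, 185 and 149 CPM on K-depleted medium, 95.1, 106, 135, 83.4 and 122 CPM with muscovite and 141, 140, 122, 105 and 103 CPM with phlogopite. Neither mineral group overlapped the K-depleted values. Muscovite lowered it by a log2 value of -0.68 (SE 0.10, edgeR adjusted p 0.000144) and phlogopite by -0.50 (SE 0.10, edgeR adjusted p 0.0111). PAXINDRAFT_18660 read 62.8 to 75.2, 33.2 to 56.0 and 40.9 to 57.8 CPM in the same order, again without overlap with K-depleted medium. The differences were -0.68 (SE 0.11, edgeR adjusted p 0.000251) and -0.51 (SE 0.11, edgeR adjusted p 0.0112). Fitting these 2 groups by themselves ended the phlogopite call of both (0.109 and 0.0554).

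The third member called with both, PAXINDRAFT_166147, read 102, 100, 96.2, 69.6 and 76.0 CPM on K-depleted medium. With muscovite it read 51.5 to 62.4 CPM (-0.59 on the log2 scale, SE 0.10, edgeR adjusted p 0.000986), below every K-depleted culture. With phlogopite it read 53.1 to 71.7 CPM, which overlaps K-depleted medium (-0.42, SE 0.10, edgeR adjusted p 0.0213). The phlogopite call ended without K-depleted replicate 1, 2 or 3, without phlogopite replicate 4 or 5, and with the 2 groups fitted alone. In none of these 3 members was phlogopite called different from muscovite (edgeR adjusted p 0.302, 0.364 and 0.353).

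Of the members lowest with muscovite, PAXINDRAFT_96982 differed by -1.35 on the log2 scale (SE 0.37, edgeR adjusted p 0.0497). Without K-depleted replicate 4 the difference was -0.47 (edgeR adjusted p 0.0525), and the call ended in 11 of 17 settings, with adjusted p up to 0.299. PAXINDRAFT_21058 followed with -0.97 (SE 0.16, edgeR adjusted p 0.000986), and its 5 muscovite values all lay below its K-depleted values. Without K-depleted replicate 4 it had -0.75 (edgeR adjusted p 0.000455), and with the 2 groups fitted alone the adjusted p was 0.0738. PAXINDRAFT_167028 had -0.85 (SE 0.21, edgeR adjusted p 0.0298), a call that ended without K-depleted replicate 4 (0.0911) and in 5 other settings. The muscovite culture read highest, 475 CPM, overlapped the K-depleted range of this gene.

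PAXINDRAFT_172428 read 544, 441, 482, 548 and 468 CPM on K-depleted medium and 220, 308, 367, 198 and 312 CPM with muscovite. The groups did not overlap (-0.81 on the log2 scale, SE 0.15, edgeR adjusted p 0.00245). Its phlogopite values, 324 to 508 CPM, overlapped both, and its K-vermiculite values were 119 to 173 CPM. PAXINDRAFT_171199 read 121 to 271 CPM with muscovite against 229 to 411 CPM on K-depleted medium, with overlap (-0.74, SE 0.19, edgeR adjusted p 0.0328). That call ended in 7 of 17 settings, with an adjusted p of 0.101 without K-depleted replicate 4.

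Of the 26 members higher with phlogopite than with muscovite, 18 were also called lower with muscovite than on K-depleted medium. Both comparisons use the same muscovite libraries, so calls in common are built in. The share of all tested genes called in both is not given, so the 18 are a description. PAXINDRAFT_167893 was one of these 18. It read 614, 609, 624, 665 and 561 CPM on K-depleted medium, 434, 448, 551, 450 and 471 CPM with muscovite and 589, 552, 624, 654 and 590 CPM with phlogopite. Muscovite values lay below all values of the other 2 groups, and the log2 difference from K-depleted medium was -0.37 (SE 0.07, edgeR adjusted p 0.00196).

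In terms of position between the media, muscovite placed the median member at 0.270, with quartiles of 0.204 and 0.333. Phlogopite placed it at 0.0618, with quartiles of -0.0101 and 0.149. Without K-depleted replicate 4 these medians were 0.240 and 0.00675. Muscovite took 45 members to at least 0.25, 8 to at least 0.5 and 3 to at least 0.75, and phlogopite took 10, 4 and 1. Without K-depleted replicate 4, and over the 79 members still higher on K-depleted than on complete medium, these counts were 36, 4 and 1 with muscovite and 7, 0 and 0 with phlogopite. The 4 members past 0.5 with both minerals were PAXINDRAFT_80157, PAXINDRAFT_96982, PAXINDRAFT_13938 and PAXINDRAFT_137172. In each of them K-depleted replicate 4 stood apart, at 72.7 CPM against 35.6 to 43.3 CPM in the last of these.

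Not every member followed the rest under muscovite. In 5 members the muscovite to K-depleted log2 fold change was above 0, and none of the 5 was called. PAXINDRAFT_116460 read 116, 126, 130, 73.2 and 126 CPM with muscovite and 80.0, 117, 94.5, 123 and 74.6 CPM on K-depleted medium (0.24, SE 0.24, edgeR adjusted p 0.649). PAXINDRAFT_168134, chosen for mention after its values were seen, read 70.7 to 172 CPM with muscovite, 58.1 to 179 CPM on K-depleted medium and 29.9 to 164 CPM with phlogopite. In both genes all 3 groups overlapped.

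The other depletion-induced genes fall into 3 classes, which also share the K-depleted libraries. Of 236 genes that K-vermiculite reset in part, 27 (11.4%) were called lower with muscovite and 0 higher, with a median log2 fold change of -0.12. Of the 65 genes that K-vermiculite left high, 0 were called lower and 8 (12.3%) higher, with a median of 0.11. The background for higher calls with muscovite was 1.499% of all tested genes. Of the 10 genes that K-vermiculite moved past the window, 2 were called lower with muscovite and 0 higher, with a median of -1.69, beside -0.41 in the members. Against K-depleted medium, phlogopite gave these 10 genes a median of -1.37, with 2 called lower. The medians of the 3 classes are given with all K-depleted libraries only, so the weight of replicate 4 in them is not shown. Between phlogopite and muscovite, 33 of the 236 (14.0%) were higher with phlogopite and 3 lower. Of the 65, 2 (3.08%) were higher and 9 (13.8%) lower, with a median of -0.14, and of the 10, 1 was higher and 0 lower. These stand beside 26 higher and 0 lower of the 80 members, and the difference between the lists was not tested.

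Spread between the cultures of a condition was then described. The median coefficient of variation over the members was 18.3% with muscovite, 16.7% on K-depleted medium (10.2% without replicate 4), 13.5% with phlogopite, 11.4% on complete medium and 10.8% with K-vermiculite. Over those 8845 genes it was 8.45%, 8.25%, 8.66%, 7.45% and 6.78% in the same order. Those genes are not matched to the members in level, and the rule used 3 of the 5 groups, so the values are a description. Muscovite cultures spread widely, with the median member at -0.66 in replicate 1, -0.61 in replicate 4, -0.46 in replicate 2, -0.31 in replicate 5 and -0.16 in replicate 3, as log2 ratios to K-depleted medium. Replicate 3 was the highest muscovite culture for 59 members and for 39.7% of the 8845 genes.

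The patterns of the members across the muscovite and phlogopite cultures were then compared. Each member was set against the median member over these 10 libraries, which share the difference between the minerals. Pearson's r had a median of 0.803, was at least 0.7 in 57 members and was negative in 4, with a lowest value of -0.36. Against the median of the other members it was at least 0.7 in 57 (71.3%), and 7.53% of 8767 non-members averaging 10 CPM or more reached 0.7 with the median member. The pattern is thus not particular to the members. Among those non-members, the patterns most like that of the median member over the same 10 libraries were those of PAXINDRAFT_173186 (r = 0.973), PAXINDRAFT_177112 (0.969) and PAXINDRAFT_166661 (0.967). PAXINDRAFT_173186 was itself depletion-induced, at 789 CPM on K-depleted and 116 CPM on complete medium, and fell outside the window with an f of 0.670. The other 2 were not depletion-induced, and all 3 lay above the highest member (0.943).

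Members were scattered over the reference gene order. No member was directly next to another. The closest pair, PAXINDRAFT_165013 and PAXINDRAFT_95102, had 1 gene between them, PAXINDRAFT_165014, which averaged 218 CPM on K-depleted and 268 CPM on complete medium and so did not share their induction. PAXINDRAFT_165013 averaged 56.6 CPM on K-depleted medium, 15.4 CPM on complete medium and 18.7 CPM with K-vermiculite, and PAXINDRAFT_95102 averaged 30.2, 10.7 and 11.7 CPM. Of 131 tested genes directly beside a member, 8 (6.11%) were depletion-induced, against 3.07% of all tested genes.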

How the data were processed

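The authors deposited a single table of raw read counts, with a row for each gene and a column for each culture. Libraries were made with a TruSeq Stranded mRNA kit, as the labels' protocols state. The submitters' processing notes name bcl2fastq 2.19, STAR 2.5.2b and HTSeq; their settings, the genome build, the use of strand and the treatment of reads shared by near-identical genes are not stated there. All columns matched 1 culture each by label.

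From these counts, CPM by library total gave the members and the printed levels. Tests used R 4.3.3 with edgeR 4.0.16: filterByExpr (minimum count 10, total 15), TMM, 1 coefficient per group over 25 libraries, robust quasi-likelihood fit. The filter kept 12744 genes; 3922 of 18032 had no count. SE was taken as the size of the log2 fold change over the root of its F statistic. The fit was checked on simulated data. DESeq2 1.42.0 and limma 3.58.1 were alternatives. Chi-square per degree of freedom between replicates was at least 10.8, so no library was a copy of another of its group. P-values of the main fit set differences between groups against the spread between replicate cultures, estimated from all 25 libraries.

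Members and lists were chosen with earlier results of these data known. Named members are the 6 with the highest K-depleted mean, the 6 with the highest ratio between media, up to 5 called lowest and 3 called highest for each of muscovite and phlogopite against K-depleted medium, up to 4 each way between these minerals, and those at the ends of the window, 20 in all. A further 7 were named after their values were seen. Planned descriptions of protein and promoter sequence were not run, because no sequences were used here. The reference served only for biotype and gene order; all 18032 IDs matched.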

Additional observations from a re-analysis of the deposited data

Results flagged for a closer look

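For each named member and for the median member, the 5 cultures of a group were compared by Dixon's criterion. It set 1 culture apart in 19 of 140 groups, some of them of members named after their values were seen. Over all 80 members it did so in 37 of 400 groups (9.25%). Chance gives about 1 in 20 in unselected groups, and values of 3 of the 5 conditions chose the members.

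In 12 of these 19 the culture was K-depleted replicate 4, and it was the highest of its group each time. It read 2789 CPM for PAXINDRAFT_167711 (others 1650 to 1903), 854 CPM for PAXINDRAFT_166798 (563 to 629), 943 CPM for PAXINDRAFT_81425 (429 to 499) and 866 CPM for PAXINDRAFT_165785 (432 to 512). For PAXINDRAFT_169338 it read 630 CPM (343 to 385), for PAXINDRAFT_21058 93.1 CPM (48.3 to 56.5) and for PAXINDRAFT_96982 65.9 CPM (9.91 to 14.9). The values were 35.4 CPM for PAXINDRAFT_171529 (12.6 to 16.5), 66.1 CPM for PAXINDRAFT_80157 (7.06 to 15.4), 58.4 CPM for PAXINDRAFT_13938 (18.3 to 23.3) and 72.7 CPM for PAXINDRAFT_137172 (35.6 to 43.3). The median member stood at 0.23 (log2 ratio to the K-depleted mean) there, against -0.13 to -0.04 in the others.

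K-depleted replicate 5 was high for PAXINDRAFT_166955, at 701 CPM against 23.8 to 121, and low for PAXINDRAFT_91598, at 149 CPM against 176 to 185. For PAXINDRAFT_166955, K-vermiculite replicate 5 also stood apart, at 203 CPM against 69.8 to 78.2. Phlogopite replicate 4 read 798 CPM for PAXINDRAFT_166798, against 573 to 634. For PAXINDRAFT_165785, complete-medium replicate 5 was low at 195 CPM (others 238 to 252) and muscovite replicate 3 high at 683 CPM (389 to 470). Muscovite replicate 4 was low for PAXINDRAFT_116460, at 73.2 CPM against 116 to 130. What set these cultures apart was not tested.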

How the results depend on the processing

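The direction of the members' calls held in every alternative fit for phlogopite against muscovite and for muscovite against K-depleted medium, while their number moved. Against K-depleted medium, members called with muscovite numbered 30, 18 with the 2 groups fitted alone, 14 when at least a 1.5-fold change was also asked, and 18 to 40 with 1 library left out. For phlogopite they numbered 3, 0 with the 2 groups alone, 6 with DESeq2, 0 at 1.5-fold and 2 to 7 with 1 library left out, 1 of the 7 being higher. Between phlogopite and muscovite they numbered 26, 11 with the 2 groups alone, 8 at 1.5-fold and 11 to 36 with 1 library left out. Over all tested genes, calls with 1 library left out numbered 224 to 526, 96 to 1378 and 212 to 761 in the same order. With the 2 groups alone they numbered 193, 11 and 214, and DESeq2 called 1127 for phlogopite against K-depleted medium. No share over all tested genes is given for the 1.5-fold counts. Other scalings, limma-voom and no filter on low counts kept each of these member counts within 1.5 times. A replicate block called 31, 4 and 25 members in the same order, and 466, 927 and 592 tested genes. Deviations of same-numbered cultures of different groups correlated above 0.1 in 19 of 50 pairs, with a range from -0.29 to 0.45. That count is not given for different-numbered cultures. The median correlation was 0.054 for same-numbered and -0.0072 for different-numbered cultures. Whether the numbers pair the samples was not tested, and the main fit holds no replicate term. The rule gave 29 genes at a 3-fold minimum and 70 to 86 with 1 library left out; 57 members were chosen in each of those 15 choices. TMM-scaled CPM chose 81 genes, 68 of them members. Neighbouring members numbered 0, and 2 when up to 2 genes between were allowed. For single named members no direction of a called value reversed; 61 values lost and 20 gained a call. Protein relatedness could not be compared and was not run. Counting error adds more, in relative terms, to the spread of low-count members, and p-values are limited by 5 cultures per group.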
